A study of Mus musculus with 40 samples.

Results

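Late-onset Alzheimer's disease carries inherited risk at many genes, and 10 of their mouse counterparts are described here in the injured brain: Bin1, Picalm, Sorl1, Cd2ap, Abca7, Ptk2b, Cd33, Inpp5d, Plcg2 and Spi1. They were taken by gene name from a count table of 55539 features, without use of their values. All 10 were among the 15224 features kept for testing after a filter on low counts. The left somatomotor cortex of each mouse gave the bulk RNA that was sequenced, from female 3xTg-AD mice on a C57BL/6J background, aged 2 to 4 months. Closed head injury (CHI) was given by weight drop on the intact skull under isoflurane, once a day, 1 to 5 times. Sham-injured mice had the anesthesia without the injury, and those matched to different numbers of injuries were combined (n = 4). Cortex was taken at 30 min, at 4 h or at 24 h past the last of 1 (1xCHI, n = 10), 3 (3xCHI, n = 9) or 5 injuries (5xCHI, n = 10), and at 24 h after 2 (2xCHI, n = 3) or 4 injuries (4xCHI, n = 3). Sham-injured mice, 2xCHI at 24 h and 4xCHI at 24 h served as the groups before the first, the third and the fifth injury. Every mouse, sham-injured ones included, carried the 3xTg-AD alleles, among them human mutant APP and MAPT transgenes driven by the Thy1 promoter, which is active in neurons, so no wild-type level was measured here. One further sample, 3xCHI at 4 h, was left out. The results rest on 39 samples.

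These genes fall into a few cellular roles. Bin1, Picalm, Sorl1 and Cd2ap act in endocytosis and in the sorting of endocytosed proteins, among them the amyloid precursor protein. Cd33, Inpp5d, Plcg2 and Spi1 are expressed mainly by microglia, the resident macrophages of the brain, where a receptor, a phosphatase, a phospholipase and a transcription factor meet in the signalling that follows ligand binding by Trem2 and related receptors. Abca7 moves lipids across membranes, and Ptk2b is a calcium-sensitive tyrosine kinase abundant in forebrain neurons.

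Summed counts per sample ranged from 15926014 to 27859547 (median 19028778). Levels are CPM, the reads of a gene scaled to a library of fixed size, with library sizes scaled by trimmed mean of M values (TMM). Samples 10 (5xCHI at 4 h) and 11 (5xCHI at 24 h) stood apart from the other 37. The summed level of 15 microglial marker genes, all of them tested, was 1156 and 1481 CPM in these samples and 376 to 660.5 CPM in the others. Their 8 astrocyte markers summed to 6610 and 7316 CPM against 3001 to 5127, and their 8 neuronal markers to 8384 and 6983 CPM against 8624 to 12407. Their 8 oligodendrocyte markers summed to 7992 and 9067 CPM, above the 3942 to 7977 CPM of the others. These shifts come in the same samples as the highest levels of the microglial risk genes, and their part in the results was not tested. Values of samples 10 and 11 are therefore given apart, and results that rest on them are also given without them. The numbering of the samples formed a further division. Samples 1 to 18 held 1xCHI, 3xCHI, 5xCHI and 1 sham-injured mouse, in blocks of consecutive numbers by injury (1 to 5 for 3xCHI, 7 to 12 for 5xCHI and 13 to 18 for 1xCHI), whereas samples 19 to 40 held all 6 groups. The labels name no batch, and the line between samples 18 and 19 was drawn in an earlier analysis after the main axis of variation had been seen. Within samples 1 to 18, the number of injuries and the block of numbers cannot be told apart.

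Levels of different genes were compared per kilobase of exon (CPM per kb, all annotated exons merged, mean ± SD over 39 samples). Bin1 (58.8 ± 5.90) and Ptk2b (50.1 ± 7.42) were the most abundant, followed by Sorl1 (30.1 ± 7.05) and Picalm (9.11 ± 0.562). Abca7 (3.65 ± 0.505) and Cd2ap (2.35 ± 0.234) were lower. The microglial genes were the least abundant in this bulk tissue, at 1.82 ± 0.462 for Inpp5d, 1.45 ± 0.643 for Spi1, 1.06 ± 0.280 for Cd33 and 0.902 ± 0.245 for Plcg2. Neighbours in this order overlapped in their ranges over samples with 3 exceptions. Picalm (8.19 to 10.3) lay wholly below Sorl1 (lowest 17.0) and above Abca7 (highest 5.24), and the lowest Abca7 sample (2.85) was above the highest of Cd2ap (2.73). With the longest transcript as the length, Ptk2b (91.8) stood above Bin1 (90.2), and Cd2ap (6.66) above Abca7 (3.68). Of the closest relatives, Amph (39.3), Snap91 (35.3), Sort1 (55.6) and Plcg1 (12.6) were abundant, and Spib, a relative of Spi1, did not pass the filter.

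Whether successive injuries shifted the risk genes was asked with the slope of expression on the number of injuries. Time point was a factor in this model, and sham-injured mice formed a time level of their own, so the slope was estimated from the 35 injured samples. It is a log2 fold change per injury, tested by edgeR's quasi-likelihood test and a feature was called where p, adjusted by Benjamini-Hochberg over all tested features, was under 0.05. Inpp5d rose with the number of injuries and was the only risk gene called in this fit. Over all features, 307 of 15224 (2.02%) were called. The other microglial genes and Ptk2b had positive slopes that did not pass the threshold, and the endocytic genes and Abca7 had slopes near 0.

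Inpp5d (ENSMUSG00000026288, chromosome 1, 87620312 to 87720507 on the plus strand, GRCm38) encodes SHIP1, a phosphatase that removes a phosphate from the lipid messenger made by PI 3-kinase and so restrains signalling from immune receptors. In sham-injured mice its levels were 12.5, 13.2, 14.6 and 14.1 CPM. After 1xCHI they ran from 8.70 to 13.6 CPM (median 10.8, n = 10), and 7 of the 10 lay below every sham-injured value. All 6 of the 1xCHI samples numbered 13 to 18 were among these 7, whereas 3 of the 4 sham-injured mice were numbered 19 to 40. After 2xCHI the levels were 14.1, 11.9 and 13.0 CPM, and after 4xCHI 12.0, 11.3 and 15.7 CPM. After 3xCHI they ran from 11.9 to 17.3 CPM (median 13.4, n = 9). After 5xCHI they ran from 12.8 to 26.2 CPM (median 15.3, n = 10). Samples 10 and 11 gave the 2 highest values, 26.2 and 25.2 CPM, and the other 8 lay at 12.8 to 16.8 CPM, a range that overlapped the sham-injured and the 1xCHI values.

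The slope of Inpp5d was 0.150 ± 0.0276 (SE) log2 per injury, with an adjusted p of 0.00876 (edgeR). By p it held rank 3 of 15224 features. Without samples 10 and 11 the slope was 0.105 ± 0.0229 with an adjusted p of 0.0314 (134 of 15254 features called, 0.878%). It was called in each of 39 fits that left out 1 sample, at 0.129 to 0.160 per injury. Without the 5xCHI samples the slope was 0.127 and the adjusted p 0.364, with 0% of features called (1692 at an unadjusted p under 0.05).

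The slope was also taken within each range of sample numbers. In samples 1 to 18 it was 0.245 with an adjusted p of 0.00183, where 14.5% of all features were called, and without samples 10 and 11 it was 0.186 (adjusted p 0.00114, 28.1% called). In these samples Inpp5d levels after 1xCHI (8.70 to 11.4 CPM, n = 6) overlapped neither those after 3xCHI (12.4 to 17.3 CPM, n = 5) nor those after 5xCHI (15.2 to 26.2 CPM, n = 6). In samples 19 to 40 the slope was 0.0262 with an adjusted p of 1.00, and 0% of features were called. The levels in that range were 11.1 to 13.6 CPM after 1xCHI and 12.8 to 15.1 CPM after 5xCHI (n = 4 each). A test of the difference between both slopes gave -0.188 ± 0.0384 (adjusted p 0.0296, 65 features called, 0.427%). Without samples 10 and 11 this difference was -0.137 and the adjusted p 0.0635, so that it no longer passed. As the line between the ranges was drawn from these same data, the p-values of the difference are not independent evidence for it.

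**Figure D1:**
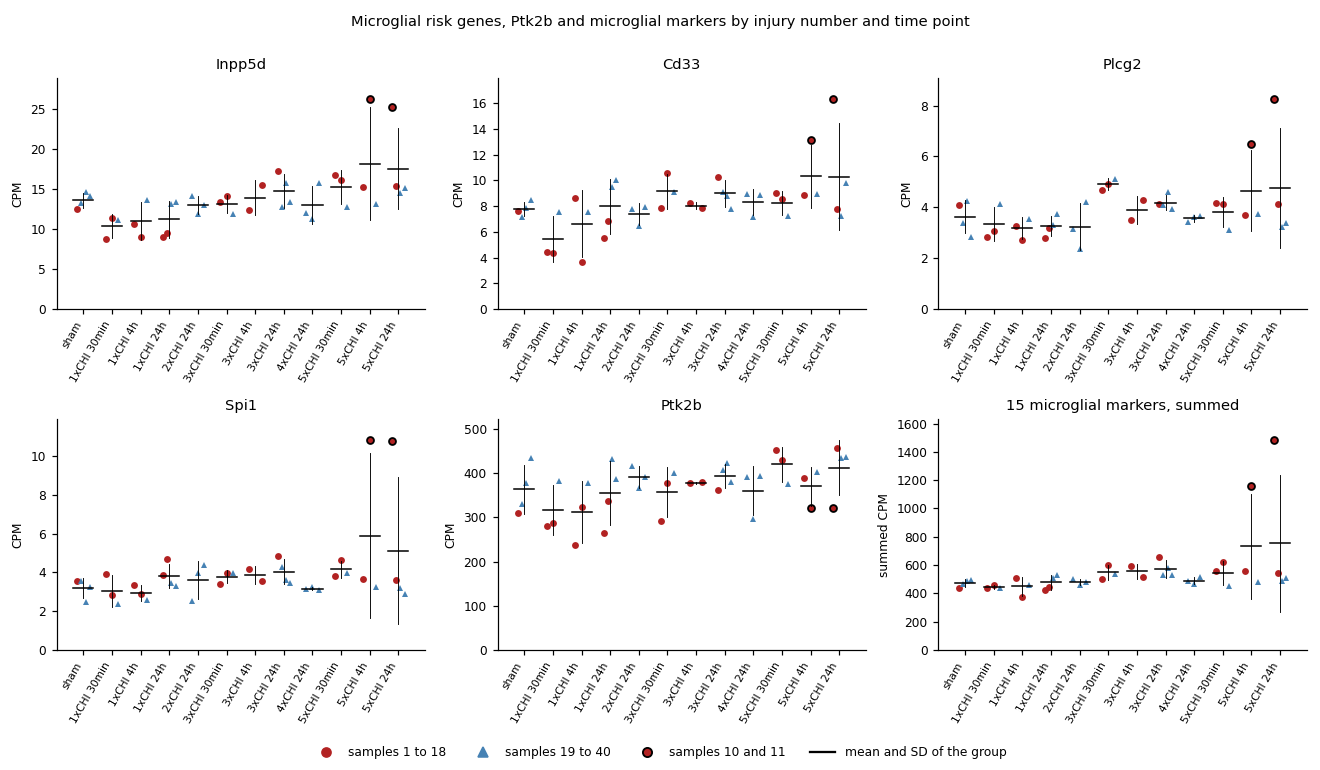
Levels (CPM, linear axes from 0) of Inpp5d, Cd33, Plcg2, Spi1 and Ptk2b and the sum of 15 microglial markers in the 12 injury and time groups, with 1 point per mouse, a bar at the group mean and a line for the SD. Samples 10 and 11 (black outline) hold the highest values of the 4 microglial genes and of the markers, and are the lowest 5xCHI samples for Ptk2b.

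The 5xCHI and 1xCHI groups were also compared directly. Inpp5d was higher after 5xCHI by 0.644 ± 0.114 on the log2 scale (adjusted p 0.00669, where 2.27% of features were called), and in this fit it was the only risk gene called. Without samples 10 and 11 the difference was 0.447 (adjusted p 0.0232, 1.18% called). A fit of these 2 groups alone called no feature (1862 of 15621 at an unadjusted p under 0.05), with Inpp5d at 0.648 and an adjusted p of 0.170. When all 6 groups were fitted without samples 10 and 11, Ptk2b was called too, at 0.352 ± 0.0901 (adjusted p 0.0466), against 0.281 ± 0.0910 (adjusted p 0.0873) with them. Cd33, Spi1 and Plcg2 had differences of 0.508, 0.610 and 0.449 in the 39 samples and of 0.304, 0.123 and 0.184 without samples 10 and 11, none of them called by edgeR in these fits. With the sample range as a covariate, Ptk2b (0.297, adjusted p 0.0287) and Cd33 (0.519, adjusted p 0.0458) were called beside Inpp5d, where 3.53% of features were called. DESeq2 called Cd33 (adjusted p 0.0308) and Plcg2 (adjusted p 0.0499) beside Inpp5d, where 4.07% were called.

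Cd33 (ENSMUSG00000004609, chromosome 7, 43524216 to 43544428, minus strand) encodes a receptor for sialic acids. Its levels were 7.58, 7.14, 7.85 and 8.51 CPM in sham-injured mice. They spread from 3.67 to 10.0 CPM after 1xCHI (median 7.18, n = 10) and from 7.79 to 10.6 CPM after 3xCHI (median 8.76, n = 9). After 2xCHI they were 7.79, 6.45 and 7.96 CPM, and after 4xCHI 8.96, 7.16 and 8.86 CPM. After 5xCHI they ran from 7.21 to 16.3 CPM (median 8.91, n = 10), with 13.1 in sample 10 and 16.3 in sample 11. No group other than 1xCHI reached below 6.45 CPM, and no sample other than 10 and 11 reached above 10.6 CPM. The slope of 0.125 ± 0.0355 per injury missed the threshold (adjusted p 0.0518), and without samples 10 and 11 it was 0.0825 (adjusted p 0.157). It was called with the sample range as a covariate (adjusted p 0.0465, 3.02% of features called), with library size scaling alone (0.0481, 1.9%) and with all 40 samples (0.0474, 2.19%). DESeq2 called it (adjusted p 0.0233, 4.01% of features called), and edgeR did so in 11 of the 39 fits that left out 1 sample. Within samples 1 to 18 the slope was 0.231 (adjusted p 0.0117), and in samples 19 to 40 it was -0.000495 (adjusted p 1.00).

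Plcg2 (ENSMUSG00000034330, chromosome 8, 117498291 to 117635142, plus strand) encodes the phospholipase that turns receptor signals into calcium release in microglia. Sham-injured levels were 4.09, 3.39, 4.24 and 2.82 CPM. After 1xCHI they were 2.71 to 4.11 CPM (median 3.23, n = 10), after 3xCHI 3.52 to 5.13 CPM (median 4.30, n = 9) and after 5xCHI 3.12 to 8.24 CPM (median 3.94, n = 10). Sample 11 held the 8.24 CPM and sample 10 had 6.50 CPM. After 2xCHI the values were 3.14, 2.35 and 4.22 CPM, and after 4xCHI 3.41, 3.63 and 3.66 CPM. All groups overlapped with the sham-injured one. The slope was 0.110 ± 0.0359 per injury (adjusted p 0.0872) and 0.0505 without samples 10 and 11 (adjusted p 0.307). Its value in samples 1 to 18 was 0.196 (adjusted p 0.0132), and in samples 19 to 40 it was -0.013 (adjusted p 1.00).

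Spi1 (ENSMUSG00000002111, chromosome 2, 91082390 to 91115756, plus strand) encodes PU.1, the transcription factor that sets up macrophage and microglial identity. In 37 samples it stayed between 2.35 and 4.84 CPM, and in samples 10 and 11 it was at 10.8 CPM in each. Sham-injured levels were 3.55, 3.54, 2.47 and 3.27 CPM, those after 2xCHI 2.52, 3.96 and 4.38 CPM, and those after 4xCHI 3.13, 3.26 and 3.12 CPM. The median was 3.33 CPM after 1xCHI, 3.96 after 3xCHI and 3.74 after 5xCHI. The slope of 0.137 ± 0.0482 (adjusted p 0.115) was 0.0221 (adjusted p 0.682) without these 2 samples. Without them it was 0.0418 even in samples 1 to 18 (adjusted p 0.457), where the other microglial genes had adjusted p-values of 0.00114 (Inpp5d), 0.0341 (Cd33) and 0.0415 (Plcg2), in a fit that called 28.1% of all features.

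PU.1 binds purine-rich sites with a GGAA centre. RefSeq promoter windows (GRCm38.p6, 250 bases before to 50 after the start) were matched by symbol for 7 of the 10 risk genes, and the windows of the 3 other microglial genes among them are shown so that their purine-rich stretches can be read. Capitals mark GAGGAA on either strand, and GAGGAAGT where it is present, which holds the shorter motif. The windows are chr1:87620062-87620361 (plus strand) for Inpp5d, chr7:43533122-43533421 (minus strand) for Cd33 and chr8:117498025-117498324 (plus strand) for Plcg2, each written 5′ to 3′ on its own strand. The Cd33 window follows the start given by RefSeq and lies inside the longer span of the gene given above, downstream of its 5′ end.
Inpp5d: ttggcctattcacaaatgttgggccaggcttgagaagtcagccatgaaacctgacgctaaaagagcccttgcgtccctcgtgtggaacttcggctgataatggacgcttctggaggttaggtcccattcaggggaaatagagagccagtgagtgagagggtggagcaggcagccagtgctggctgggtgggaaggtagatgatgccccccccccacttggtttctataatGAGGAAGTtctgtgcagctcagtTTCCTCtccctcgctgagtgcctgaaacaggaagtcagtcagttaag
Cd33: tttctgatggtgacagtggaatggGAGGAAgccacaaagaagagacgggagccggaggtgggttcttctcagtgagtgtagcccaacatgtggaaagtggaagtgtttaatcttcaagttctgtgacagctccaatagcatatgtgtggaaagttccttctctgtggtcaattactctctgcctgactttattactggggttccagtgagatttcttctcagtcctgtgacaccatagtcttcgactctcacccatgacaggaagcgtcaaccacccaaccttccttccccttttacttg
Plcg2: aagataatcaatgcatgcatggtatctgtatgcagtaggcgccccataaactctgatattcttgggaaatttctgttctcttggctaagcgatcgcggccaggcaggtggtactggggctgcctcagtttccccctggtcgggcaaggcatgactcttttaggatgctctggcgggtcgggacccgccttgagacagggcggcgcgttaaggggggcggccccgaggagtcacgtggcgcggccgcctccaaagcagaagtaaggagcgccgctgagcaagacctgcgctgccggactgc
Inpp5d held 1 copy of GAGGAAGT, which starts at base 231 of the window, and a reverse GAGGAA at base 254. Cd33 held 1 GAGGAA at base 25, and Plcg2 had neither motif. Over all 32851 windows of the same length, 28.3% held GAGGAA on either strand and 3.2% held GAGGAAGT. Of the other matched windows, only that of Picalm held GAGGAA, at bases 194 and 220. A match describes these letters and was not tested for binding.

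Ptk2b (ENSMUSG00000059456, chromosome 14, 66153257 to 66281052, minus strand) encodes PYK2, a focal adhesion family kinase that responds to calcium at synapses. Its sham-injured levels were 311, 331, 378 and 435 CPM. After 1xCHI they ran from 237 to 433 CPM (median 331, n = 10), after 3xCHI from 293 to 424 CPM (median 380, n = 9) and after 5xCHI from 321 to 458 CPM (median 417, n = 10). Those after 2xCHI were 418, 367 and 392 CPM, and those after 4xCHI 391, 296 and 394 CPM. Unlike the microglial genes, Ptk2b was lowest among the 5xCHI mice in samples 10 and 11, at 321 CPM in each. Its slope was 0.0615 ± 0.0218 (adjusted p 0.118), and 0.0773 ± 0.0215 (adjusted p 0.0616) without these samples. Samples 1 to 18 gave 0.114 (adjusted p 0.0145), with 1xCHI at 237 to 337 CPM. In samples 19 to 40 it was 0.0046 (adjusted p 1.00), with 1xCHI at 377 to 433 CPM. The difference between both slopes was -0.0923 (adjusted p 0.167).

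**Figure D2:**
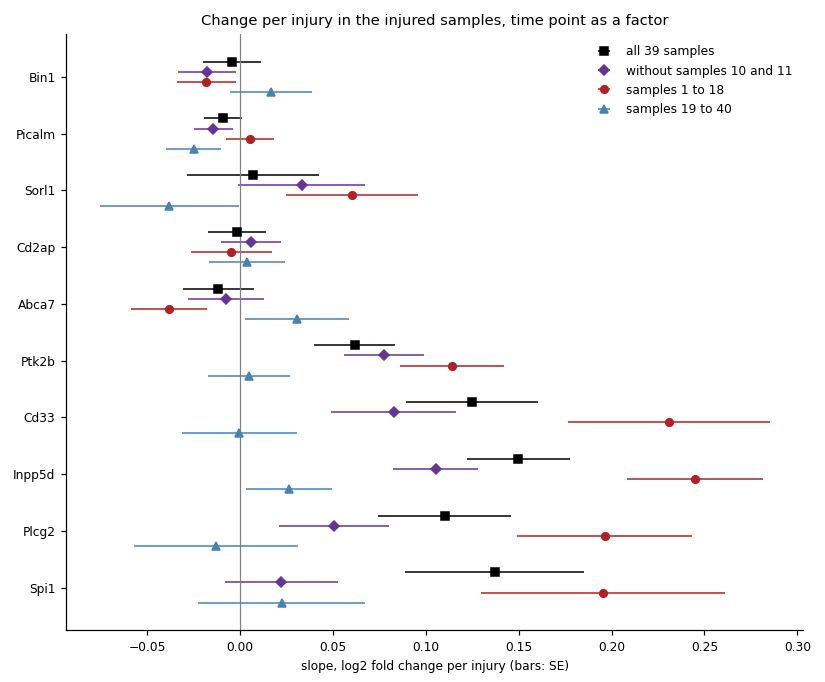
Slopes of the 10 risk genes (log2 fold change per injury, bars: SE) in all 39 samples, without samples 10 and 11, in samples 1 to 18 and in samples 19 to 40, with 0 as a grey line. In samples 1 to 18 the slopes of Inpp5d, Cd33, Plcg2 and Spi1 lie between 0.195 and 0.245, and in samples 19 to 40 those of all 10 lie between -0.0383 and 0.0304.

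Among the endocytic genes, none had a slope past the threshold in the 39 samples, where their slopes ran from -0.0092 to 0.0070. Bin1, which bends membranes and, in its brain isoform, binds clathrin, was at 199 to 290 CPM over all 39 samples (median 243) and had a slope of -0.0044 ± 0.0158 (adjusted p 0.914). Picalm, a clathrin adaptor, was the steadiest of the 10 with 129 to 163 CPM (median 142) and had a slope of -0.0092 ± 0.0103 (adjusted p 0.677). Cd2ap, a scaffold between endocytosis and actin, was at 30.0 to 43.3 CPM (median 37.3), with a slope of -0.0019 ± 0.0157 (adjusted p 0.964). Their ranges after each number of injuries overlapped the sham-injured range.

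Sorl1, the sorting receptor that carries the amyloid precursor protein away from late endosomes, varied most among the endocytic genes. Sham-injured mice had 354, 339, 518 and 399 CPM. After 1xCHI its levels ran from 203 to 534 CPM (median 270, n = 10), after 3xCHI from 256 to 484 CPM (median 336, n = 9) and after 5xCHI from 193 to 402 CPM (median 332, n = 10). The values were 414, 310 and 290 CPM after 2xCHI and 426, 315 and 373 CPM after 4xCHI. Within 1xCHI, the 6 samples numbered 13 to 18 had 203 to 275 CPM and the 4 samples of the later range 354 to 534 CPM, which do not overlap. The lowest value of all was 193 CPM in sample 11. Against sham-injured mice the difference was -0.34 ± 0.189 after 1xCHI (adjusted p 0.324) and -0.33 ± 0.189 after 5xCHI (adjusted p 0.470). The slope was 0.0070 ± 0.0356 (adjusted p 0.942) in all samples, 0.0602 (adjusted p 0.254) in samples 1 to 18 and -0.0383 (adjusted p 1.00) in samples 19 to 40. When samples 10 and 11 were left out of samples 1 to 18, Sorl1 was called at 0.105 (adjusted p 0.0147) and Bin1 at -0.0396 (adjusted p 0.0426), where 28.1% of all features were called.

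Abca7, the lipid transporter, was at 19.3 to 35.4 CPM over all samples (median 24.6), with a slope of -0.012 ± 0.0191 (adjusted p 0.784). Its 2 highest values, 32.6 and 35.4 CPM, were in samples 13 and 14, both 1xCHI at 30 min, while the third sample of that group, number 27, had the lowest of all, 19.3 CPM. Sham-injured levels were 22.9, 26.4, 24.4 and 23.5 CPM. The 4 red blood cell markers summed to 510.0 and 499.7 CPM in samples 13 and 14, the highest of the 39, and to 85.6 CPM in sample 27, the lowest, against 169.9 to 273 CPM in sham-injured mice. Their part in the Abca7 levels was not tested. Abca7 had r of 0.374 with these markers (adjusted permutation p 0.0784) and of 0.0932 without samples 13 and 14.

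**Figure D3:**
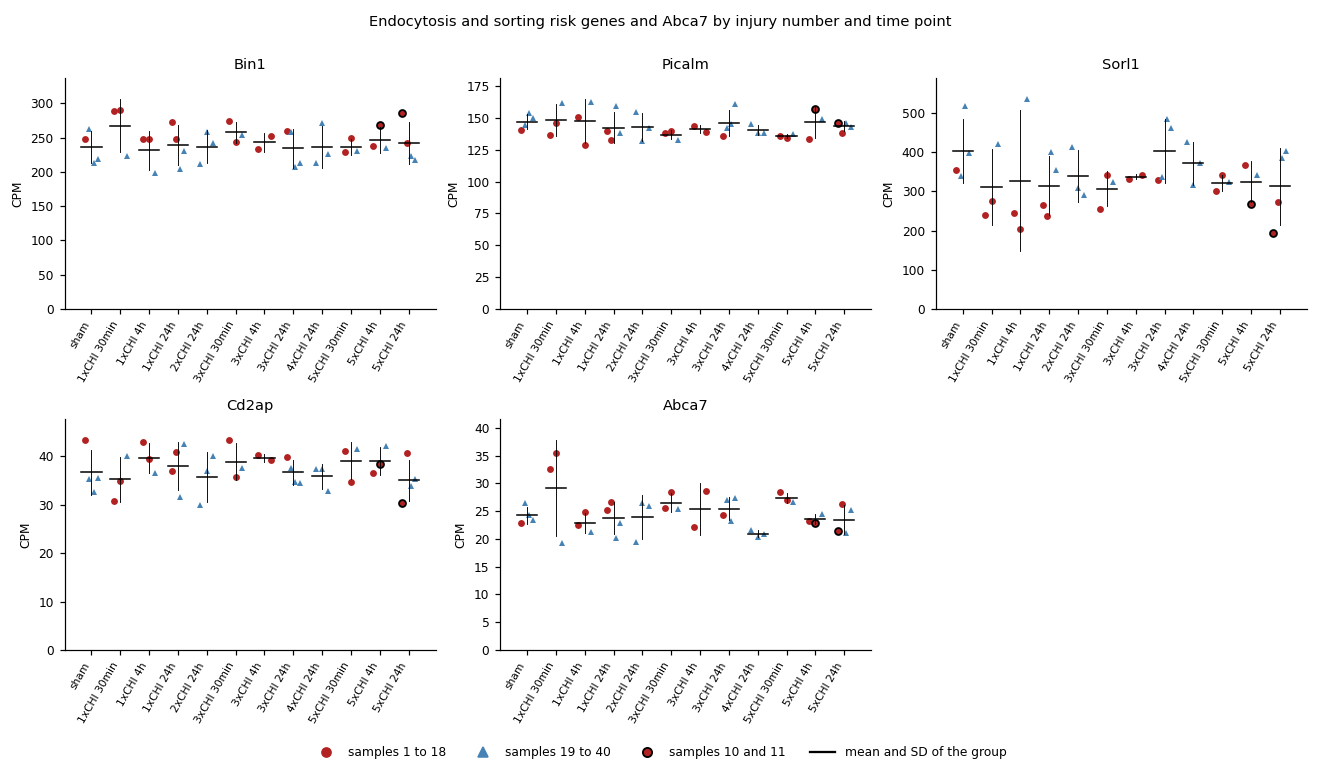
Levels (CPM, linear axes from 0) of Bin1, Picalm, Sorl1, Cd2ap and Abca7 in the 12 injury and time groups, with 1 point per mouse, a bar at the group mean and a line for the SD. Sorl1 shows the split within 1xCHI between samples 1 to 18 (203 to 275 CPM) and samples 19 to 40 (354 to 534 CPM), and Picalm stays at 129 to 163 CPM in all samples.

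Each injury number was next compared with sham-injured mice, with time points combined, which asks whether a risk gene departs from its level in uninjured 3xTg-AD cortex. None of the 10 was called, and over all features 0% were called in each of the 5 comparisons by edgeR (259 to 2625 features had an unadjusted p under 0.05, and DESeq2 called 39 features in all). Without adjustment, Inpp5d was lower after 1xCHI by -0.32 ± 0.150 (p 0.0414, adjusted p 0.281), a comparison in which 17.2% of all features had an unadjusted p under 0.05. After 5xCHI, Inpp5d was at 0.33 ± 0.152 (p 0.0378, adjusted p 0.414) and Spi1 at 0.66 ± 0.270 (p 0.0190, adjusted p 0.391), against 11.6% of all features. Without samples 10 and 11 the last differences were 0.131 ± 0.117 for Inpp5d and 0.174 ± 0.158 for Spi1. After 3xCHI the 10 differences ran from -0.18 (Sorl1) to 0.28 (Spi1), with adjusted p-values of 0.911 or above.

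The time points after the first, the third and the fifth injury were then compared with the group before that injury. No risk gene was called in any of the 9 comparisons, in which 0% of features were called by edgeR (286 to 2997 had an unadjusted p under 0.05, and DESeq2 called 44 in all). Plcg2 at 30 min after the third injury had 4.68, 4.93 and 5.13 CPM, against 3.14, 2.35 and 4.22 CPM after 2xCHI, a difference of 0.61 ± 0.266 (adjusted p 1.00, with 1.88% of features at an unadjusted p under 0.05). Abca7 at 30 min after the fifth injury had 28.4, 27.1 and 26.6 CPM, against 21.6, 20.4 and 20.9 CPM after 4xCHI. These 2 groups did not overlap, and all 3 values after 4xCHI also lay below the sham-injured range (22.9 to 26.4 CPM). The difference of 0.38 ± 0.148 had an adjusted p of 0.780 (6.36% of features at an unadjusted p under 0.05). At 4 h after the fifth injury, Inpp5d (0.49 ± 0.218) and Spi1 (0.91 ± 0.376) had unadjusted p-values under 0.05, as had 5.33% of features, and without samples 10 and 11 the differences were 0.126 and 0.123. At 24 h, Inpp5d (0.43 ± 0.205) did so beside 6.44% of features, and was at 0.209 without these samples.

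After the first injury, Cd33 at 30 min had 4.42, 4.38 and 7.53 CPM, all but the last below the 4 sham-injured values, a difference of -0.52 ± 0.259 (adjusted p 0.260). When sample 27 was left out, Cd33 (-0.82, adjusted p 0.0401) and Abca7 (0.48, adjusted p 0.0102) were called in this comparison. That fit set samples 13 and 14, the highest in red blood cell markers, against sham-injured mice, and 23.6% of all features were called in it. Within 1xCHI, 3xCHI and 5xCHI, a test for any difference between time points called 5 features (0.0328%), none of them a risk gene, and unadjusted p-values of the 10 ran from 0.152 (Abca7) to 0.867 (Sorl1). A test of whether the time course differed between injury numbers called 0% of features by edgeR (507 at an unadjusted p under 0.05, 8 by DESeq2).

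**Figure D4:**
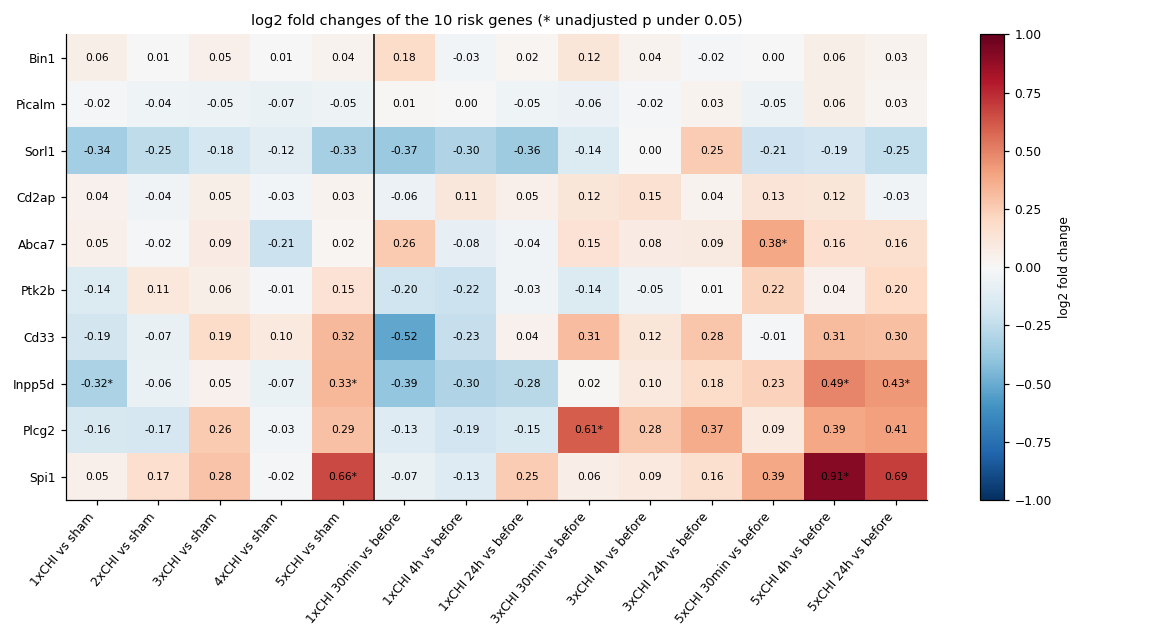
Log2 fold changes of the 10 risk genes against sham-injured mice (left of the black line) and against the group before the injury (right), from blue (lower) to red (higher), with stars for unadjusted p under 0.05. No value passed the adjusted threshold, and the largest, 0.91 for Spi1 at 4 h after the fifth injury, was 0.123 without samples 10 and 11.

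In bulk tissue, a change in the number of microglia and a change in RNA per microglial cell cannot be told apart, so the risk genes were set beside cell type markers. Each marker list was summarised as the mean z-score of its genes, and 80 pairs of risk gene and list were tested by 100000 permutations with Benjamini-Hochberg adjustment. With all 39 samples, the microglial genes had a Pearson r with the microglial score of 0.835 (Inpp5d), 0.833 (Spi1), 0.792 (Plcg2) and 0.770 (Cd33), each with an adjusted permutation p of 1e-04, and Spearman's rho was 0.703, 0.458, 0.633 and 0.815. Samples 10 and 11 were also the 2 farthest from the median of the score. Without them r was 0.719 for Cd33 (adjusted permutation p 0.000533), 0.695 for Inpp5d (0.000400), 0.564 for Plcg2 (0.00333) and 0.430 for Spi1 (0.0508), so that only the relation of Spi1 no longer passed. In samples 1 to 18 the values of r were 0.887 for Inpp5d, 0.910 for Spi1, 0.890 for Plcg2 and 0.851 for Cd33, and in samples 19 to 40 they were 0.522, 0.315, 0.425 and 0.709. Samples 10 and 11 lie in the first of these ranges, and r within it was not taken without them.

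The microglial marker sum itself was 438 to 496 CPM in sham-injured mice, 376 to 531 CPM after 1xCHI, 460 to 500.0 CPM after 2xCHI, 503 to 660.5 CPM after 3xCHI, 465.8 to 517 CPM after 4xCHI and 455 to 623 CPM after 5xCHI without samples 10 and 11. After 2xCHI and 4xCHI it thus overlapped the sham-injured range, whereas all 9 samples after 3xCHI lay above it. Of its 15 genes, none was at 0 throughout, all had positive slopes on the number of injuries and 5 were called (2.02% of all features were), and without samples 10 and 11 none was called (0.878% of all features). In samples 1 to 18 all 15 had positive slopes and 13 were called (14.5% of all features were), and in samples 19 to 40 only 7 had positive slopes, with a median of -0.0023 and none called. Samples 1 to 18 include samples 10 and 11, and none of the gene lists was counted in that range without them. The share of the Inpp5d slope that goes with the markers was not tested. Markers of perivascular macrophages and blood leukocytes summed to 5.63 to 32.1 CPM over all samples, with 6 of 10 genes under the filter, and none of the 4 tested was called. Of the other marker lists, the slope was called for Gfap among 8 astrocyte genes (0.41, and 0.114 with an adjusted p of 0.422 without samples 10 and 11), for Tubb3 among 8 neuronal genes (-0.0827) and for Ttr (1.09) and Kl (0.49) among 6 tested meningeal and choroid plexus genes, and for none of 8 oligodendrocyte, 10 endothelial and 4 red blood cell genes. The red blood cell genes all had negative slopes, with a median of -0.147 per injury (-0.146 without samples 10 and 11), each at an unadjusted p under 0.05, as had 18.1% of all features. In samples 1 to 18 their median was -0.233 and 1 was called (14.5% of all features were). In samples 19 to 40 it was -0.0071, with 1 of the 4 positive and none called. Tubb3 (-0.0731), Ttr (1.15) and Kl (0.55) were called without samples 10 and 11 too. The meningeal and choroid plexus markers stood apart in other samples. They summed to 2615 CPM in sample 31 and 1382 CPM in sample 32 (both 5xCHI), and to 976 CPM in sample 24 (4xCHI). The remaining samples had 43.5 to 510 CPM. The part of these samples in the slopes of Ttr and Kl was not tested.

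**Figure D5:**
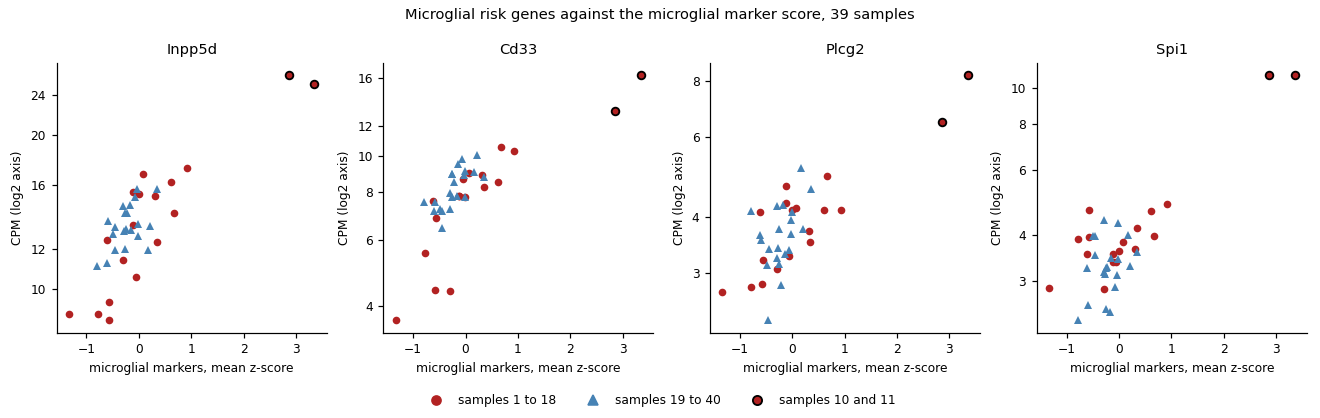
Levels of Inpp5d, Cd33, Plcg2 and Spi1 (CPM, log2 axis) against the microglial marker score (mean z-score of 15 genes), with 1 point per mouse and samples 10 and 11 outlined. These samples lie at scores of 2.86 and 3.35, and Pearson's r without them is 0.695, 0.719, 0.564 and 0.430 in the order of the panels.

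Bin1, Ptk2b and Sorl1 had their passing pairs with markers of other cell types, and for Picalm, Cd2ap and Abca7 no pair with any list passed in the 39 samples. When samples 10 and 11 were left out, Cd2ap passed with the neuronal markers (r -0.443, adjusted permutation p 0.0416) and Cd33 with the endothelial ones (0.458, 0.0371). Bin1 had r of 0.647 with the oligodendrocyte markers (adjusted permutation p 1e-04), 0.588 without samples 10 and 11, and 0.630 and 0.583 in the ranges of samples 1 to 18 and 19 to 40. Ptk2b went the opposite way with the same markers (r -0.633, adjusted permutation p 1e-04) and was at -0.644 without samples 10 and 11 and at -0.624 and -0.420 within the ranges. Spearman's rho was 0.696 for Bin1 and -0.647 for Ptk2b. Sorl1 had r of 0.576 with the neuronal markers (adjusted permutation p 0.000800) and rho of 0.503 (adjusted permutation p 0.0124). Its r was 0.475 without samples 10 and 11, but 0.0623 in samples 19 to 40 against 0.604 in samples 1 to 18, which hold samples 10 and 11. The same 3 genes had weaker passing pairs, Bin1 with neurons (r -0.447, adjusted permutation p 0.0172), Ptk2b with neurons (0.442, 0.0277) and Sorl1 with oligodendrocytes (-0.436, 0.0266), at -0.316, 0.479 and -0.285 without samples 10 and 11, where that of Ptk2b passed. The microglial genes had further passing pairs in all 39 samples. Each of them passed with the astrocyte score (r of 0.792 for Inpp5d, 0.706 for Cd33, 0.750 for Plcg2 and 0.653 for Spi1, adjusted permutation p of 0.00427 or below). Spi1 and Plcg2 passed with the oligodendrocyte (0.548 and 0.415) and the neuronal markers (-0.658 and -0.535), with adjusted permutation p-values of 0.00276 to 0.0398. Leaving out samples 10 and 11 brought these last 4 pairs to 0.202, 0.0640, -0.0256 and -0.00213 and Spi1 with astrocytes to 0.0198, none of which passed. Inpp5d, Cd33 and Plcg2 kept positive r with the astrocyte score, at 0.596, 0.542 and 0.475 without these samples. In samples 1 to 18, with samples 10 and 11 among them, r was 0.848, 0.834 and 0.832, and in samples 19 to 40 it was 0.433, 0.125 and 0.435.

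By likeness of log2 CPM over the 39 samples, the features nearest to each microglial gene were mostly genes known from microglia, and Csf1r and Siglech belong to the marker list itself. Csf1r, the receptor for colony-stimulating factor 1, was nearest to both Inpp5d (r = 0.920) and Cd33 (r = 0.861), also without samples 10 and 11 (0.852 and 0.810). Inpp5d was next followed by Mpeg1 and Vsir, and Cd33 by Mpeg1 and Siglech. Nearest to Plcg2 were C3ar1 (0.814), Itgb2 and Cd84, and nearest to Spi1 were Ctsz (0.897) and Grn, both of the lysosome, then Unc93b1. Ctsz stayed nearest to Spi1 without samples 10 and 11, at 0.719. Without them, Mpeg1 and Vsir held ranks 13 and 11 for Inpp5d, and Mpeg1 and Siglech ranks 4 and 15 for Cd33. For Plcg2, C3ar1 (0.672), Itgb2 and Cd84 held ranks 2, 5 and 11, and for Spi1, Grn and Unc93b1 held ranks 3 and 12. Inpp5d and Spi1 were themselves at r = 0.562 over 39 samples and 0.0249 over 37, while Inpp5d and Cd33 were at 0.787 and 0.692.

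Outside the microglial genes, the nearest features were Pcbp4 (0.908), Nrbp2 and Gm44228 to Bin1, and Atp2a2 (0.953), Zyg11b and Rock2 to Sorl1. Those nearest to Ptk2b were Mras (0.904), Snn and Fbxl18. Picalm was nearest to Bmpr1a (0.784), Copb1 and Ncoa4, Cd2ap to Zkscan2 (0.765), Gm47469 and Ints6l, and Abca7 to Wdr90 (0.785), Gcn1l1 and Tspoap1. Without samples 10 and 11, Mras stayed nearest to Ptk2b and Zkscan2 to Cd2ap. Pcbp4 then held rank 4 for Bin1, Atp2a2 rank 3 for Sorl1 and Bmpr1a rank 14 for Picalm. Wdr90 held rank 4 for Abca7, to which Gcn1l1 (0.821) was then nearest.

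Other genes of the same pathways were followed by their slopes. Of 14 partners in microglial signalling, 13 had positive slopes and 5 were called (2.02% of all features were), with a median of 0.161 against -0.00030 over all features. The 5 were the kinases Btk (0.177) and Lyn (0.157), the exchange factor Vav1 (0.168), Csf1r (0.133) and the transcription factor Irf8 (0.166), which works together with PU.1. Trem2 (0.205, just outside the threshold) and its adaptor Tyrobp (0.211, adjusted p 0.0619) were not called, and Syk, the kinase downstream of both, had a slope of -0.030. Csf1r and Tyrobp are also counted among the microglial markers, and Trem2 among the other risk genes below, so these counts are not separate. Without samples 10 and 11 none of the 14 was called (0.878% of all features were) and the median was 0.0560. Within samples 1 to 18, where 14.5% of all features were called, there were 12 of 14 called (median 0.240), and in samples 19 to 40 none (median 0.0196). The first of these fits includes samples 10 and 11. In 5xCHI against sham-injured mice, Fcer1g, an immune receptor chain, had the largest difference of these 14, 1.30 ± 0.354 (adjusted p 0.360), and Syk the smallest, -0.35 ± 0.190. These differences were 0.68 ± 0.209 and -0.56 ± 0.170 without samples 10 and 11 (adjusted p 0.610 for both). After 3xCHI the same 2 genes held these places, at 0.87 and -0.31.

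Of 15 partners in endocytosis and sorting, none was called (2.02% of all features were), 10 had positive slopes and the median was 0.0043. Their differences from sham-injured mice ran, in all samples, from -0.29 ± 0.139 for the clathrin heavy chain Cltc to 0.18 ± 0.102 for dynamin Dnm2 after 5xCHI, and from -0.21 (Sh3kbp1) to 0.086 (Clta) after 3xCHI. In samples 1 to 18, 2 of the 15 were called, a share near the 14.5% of all features, and in samples 19 to 40 none. Of the 15, 12 had positive slopes in samples 1 to 18 and 2 in samples 19 to 40 (median -0.012).

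Of 26 other risk genes, 23 were tested and 1 was called (against 2.02% of all features), Ctsb, a lysosomal protease (0.0720 per injury, adjusted p 0.0389). Their median slope was 0.0249, and 18 of the 23 were positive. None was called without samples 10 and 11 (against 0.878% of all features), 5 were called in samples 1 to 18 (against 14.5%) and none in samples 19 to 40, where 9 of the 23 were positive and the median was -0.010. Trem2 had the largest difference from sham-injured mice after both 3xCHI (0.63) and 5xCHI (1.00 ± 0.324, adjusted p 0.367), and Jazf1 the lowest (-0.18 and -0.37). The 5xCHI difference of Trem2 was 0.36 ± 0.164 (adjusted p 0.741) without samples 10 and 11, and that of Jazf1 -0.29, and Ace, the angiotensin-converting enzyme, then had the largest (0.53 ± 0.267, adjusted p 0.741).

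Among the closest relatives of the 10 risk genes, 9 were tested and 2 were called (2.02% of all features were). Abca1, the cholesterol exporter related to Abca7, rose by 0.203 ± 0.0424 per injury (adjusted p 0.0130), where Abca7 was at -0.012. Inppl1, which encodes SHIP2, the widely expressed relative of SHIP1, rose by 0.0598 ± 0.0156 (adjusted p 0.0382). Neither passed without samples 10 and 11, at 0.132 (adjusted p 0.0615) and 0.0465 (adjusted p 0.0919), where 0.878% of all features did. In samples 1 to 18, 3 of the 9 relatives were called (14.5% of all features were). In samples 19 to 40 none was, with 4 of the 9 positive and a median of -0.00018. Siglech, a microglial relative of Cd33, was at 0.0857 (adjusted p 0.0629), and Plcg1 (-0.014), Ptk2 (-0.0071), Amph (0.0202), Snap91 (-0.00021), Sort1 (0.0276) and Sh3kbp1 (0.0023) were not called. Siglech is also a microglial marker, Sort1 is also among the other risk genes, and Amph, Snap91 and Sh3kbp1 are also among the endocytosis partners.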

How the data were processed

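Of 40 bulk RNA samples of left somatomotor cortex, each from 1 mouse, 39 entered the analysis, and sample 30 was left out following the study. The authors deposited estimated counts per gene from a sequencing company, neither normalized nor filtered. The column names of the table end as the gene-level output of Salmon does, and no version is given in the sources used here. The labels name mm10, and the gene identifiers are those of GENCODE M21 (GRCm38). Of the values, 4.46% were not whole, and they were rounded here before the tests. Bin1 and Sorl1 share exons with a gene on the opposite strand (A830052D11Rik and Gm16214), and whether counting used strand is not given in the sources used here.

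Samples were mapped to groups by their titles. A feature was kept when at most 4 samples fell below 10 counts, which left 15224 of 55539. edgeR 4.0.16 in R 4.3.3 (TMM factors 0.945 to 1.03, quasi-likelihood test) was fitted over all features, with DESeq2 1.42.0 as an alternative, and calls were made where the Benjamini-Hochberg adjusted p was under 0.05. Correlations used log2 CPM with a prior count of 1 and 100000 permutations. The scripts were tested on simulated data. The 46 pairs of samples within groups each differed beyond sampling noise (smallest chi-square per feature 6.85).

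The genes, the pathway and marker lists and the comparisons were chosen with earlier results of these data known. All 10 risk genes are named, with 3 nearest features each, their closest relatives, the called partners, and the extremes of each list after 3xCHI and 5xCHI against sham-injured mice; Ace, Trem2, Tyrobp, and the called markers were named after their values were seen. The direct comparison of 5xCHI with 1xCHI, the test of slopes between sample ranges, and fits without samples 10 and 11, within sample ranges, without 5xCHI, without 2xCHI and 4xCHI, and with sham-injured as 0 injuries were added after the data were seen. Other alternatives were library size scaling, other filters, all 40 samples, a covariate for the sample range, fits of only the compared groups and leaving out each sample.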

Additional observations from a re-analysis of the deposited data

Results flagged for a closer look

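Single samples stood far from the others of their group in 4 of 70 groups of risk gene values, where chance gives about 1 in 20. Inpp5d (25.2 CPM) and Spi1 (10.8 CPM) were far above the other 3 samples of 5xCHI at 24 h, both in sample 11, in which the microglial markers summed to 1481 CPM. Picalm reached 161 CPM in 1 of the 9 samples after 3xCHI (sample 38), and Ptk2b was at 293 CPM in another, the lowest of the 9 (sample 4).

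Opposite movements after the first and a later injury were seen in 4 cases, each judged from the groups alone, where every sample of one group moved one way and every sample of the other the opposite way. The cases were picked out by this pattern from the risk genes, time points and pairs of injury numbers. How many such cases chance would give was not worked out, nor was their share over all features. With groups this small, such patterns can arise by chance, so the 4 cases alone do not set any gene apart. The differences were not tested one by one. The mean log2 change of Cd33 at 30 min was 0.86 higher after the third injury than after the first, and that of Inpp5d at 24 h was 0.70 higher after the fifth. For Plcg2 at 4 h, the change was 0.47 higher after the third injury and 0.54 higher after the fifth than after the first. The test across all injury numbers and time points did not call these genes by edgeR, with unadjusted p-values of 0.376 (Cd33), 0.183 (Inpp5d) and 0.266 (Plcg2). Sample 10 is part of the 5xCHI group at 4 h and sample 11 of that at 24 h.

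In the sample that was left out, Cd33 was at 9.27 CPM, above the highest sham-injured sample (8.53 CPM on the scale of all 40 samples). Abca7 (20.5 CPM) and Spi1 (2.47 CPM) lay below the lowest sham-injured sample there (22.8 and 2.49 CPM).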

How the results depend on the processing

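Of 932 values under other settings, 552 for single genes or pairs and 206 for counts and levels kept their direction and their side of the threshold, or moved little. Inpp5d kept its call on the number of injuries in all settings but 2, samples 19 to 40 alone (0.0262) and without 5xCHI (0.127). In samples 19 to 40 the slopes of Cd33 and Plcg2 changed sign (-0.000495 and -0.013), as did r of Spi1 with neuronal (0.0233) and astrocyte markers (-0.295). The causes were not tested.

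Counts of called features moved more. For the injury trend (307 in all samples) they were 610 by DESeq2, 151 without a filter, 2288 in samples 1 to 18 (4438 without samples 10 and 11), 0 in samples 19 to 40 (351 at an unadjusted p under 0.05), 163 without 2xCHI and 4xCHI, 0 without 5xCHI, 121 with sham-injured as 0 and 134 without samples 10 and 11. For 5xCHI against 1xCHI (346) they were 620 by DESeq2, 132 without a filter, 538 with the sample range as covariate, 0 in a fit of only these groups and 180 without samples 10 and 11. Against sham-injured mice (0 in all) the 5 comparisons gave 39 by DESeq2, 1 without a filter, 1 with filterByExpr and 3 in fits of only the groups compared. The 9 time point comparisons gave 44, 6 without a filter, 8 in fits of only the groups compared and 1 without samples 10 and 11. The test between time points (5) gave 57 by DESeq2 and 17 without a filter, that of differing time courses 8 by DESeq2, and the difference between slopes (65) 25 without samples 10 and 11.

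Leaving out 1 sample gave 65 to 629 features for the trend, with 65 without sample 7, 69 without 10, 83 without 13, 89 without 16, 123 without 8, 125 without 14, 126 without 18, 129 without 17, 186 without 21, 204 without 29, 590 without 36, 592 without 27 and 629 without 31. For 5xCHI against 1xCHI it gave 127 (sample 13) to 706 (sample 31), with 142 without sample 14, 148 without 10, 151 without 16 or 17, 173 without 8, 182 without 7, 199 without 12, 212 without 11, 222 without 18 and 538 without 26. It gave 2 to 28 for the test between time points, 0 to 0 against sham-injured mice and 0 to 3602 for the time points (3602 without sample 27, 606 without 36 and 5 without 5). The slope of Cd33 was called when sample 5, 12, 15, 25, 26, 27, 28, 31, 32, 33 or 36 was left out, and that of Plcg2 without 31. Inpp5d stayed at 0.129 to 0.160 per injury. Of the 80 pairs of risk genes and markers, 18 passed in all samples, 11 by Spearman's rho, 2 in samples 19 to 40 and 11 without the 2 farthest samples. With the longest transcript as the length, levels were 90.2 (Bin1), 17.5 (Picalm), 6.66 (Cd2ap), 91.8 (Ptk2b), 1.44 (Cd33) and 2.80 (Inpp5d) CPM per kb. No paired analysis was possible because the sample numbers are unique to each mouse. The 2 to 4 mice per time point limit the precision, with an SE of 0.376 for Spi1 at 4 h after the fifth injury.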

Other observations

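In the 3xCHI sample at 4 h that was left out, the endocytic genes were at 230 (Bin1), 150 (Picalm), 389 (Sorl1) and 38.6 CPM (Cd2ap) on the scale of all 40 samples. Abca7 was at 20.5, Ptk2b at 429, Inpp5d at 12.8, Plcg2 at 4.17 and Spi1 at 2.47 CPM. Each lay within the range of the other 39 samples.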
